A study of Mus musculus with 33 samples.

Results

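The Tcl1 family of the mouse was described here through 6 genes, *Tcl1*, *Tcl1b1*, *Tcl1b2*, *Tcl1b3*, *Tcl1b4* and *Tcl1b5*, which were taken by symbol from a count table of 35321 genes. All 6 were found, and each had 1 entry. *Tcl1* encodes a small protein that binds the kinase AKT and promotes its activity, and mouse embryos from females without *Tcl1* develop poorly during cleavage. In the mouse a related gene, *Tcl1b*, is present in several copies next to *Tcl1*, and transcripts of the cluster are stored in the oocyte and the early embryo. AKT itself is activated downstream of PI3-kinase, is held back by phosphatases, and restrains FOXO transcription factors and other substrates in oocytes.

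The libraries hold the polyadenylated RNA of single germinal vesicle oocytes of 3-week-old C57BL6/Babr females. *Nlrp5* encodes NALP5, a core protein of the subcortical maternal complex, and the mutant allele is a small CRISPR/Cas9 deletion. The 33 oocytes comprised 10 Nlrp5 +/+, 16 Nlrp5 +/- and 7 Nlrp5 -/- oocytes, where the Nlrp5 -/- and Nlrp5 +/- females were littermates and most Nlrp5 +/+ females came from the colony from which the line was derived. Chromatin stage, with a non-surrounded (NSN) or a later, surrounded nucleolus (SN), is not in the sample labels and was read from the figures of the study. It gave 4 NSN and 6 SN Nlrp5 +/+ oocytes, 9 NSN and 7 SN Nlrp5 +/- oocytes, and 4 NSN and 2 SN Nlrp5 -/- oocytes, while oocyte 15 (Nlrp5 -/-) had no stage. The text of the study gives 2 to 6 samples for each stage and genotype, and a figure legend 4 NSN and 6 SN Nlrp5 +/- oocytes. The numbers read here for Nlrp5 +/- are thus larger than those stated. The study staged the oocytes by marker transcripts in these same libraries, *Tcl1b3* among them, so that the contrast of SN with NSN is given as a description. No label ties an oocyte to a mouse, and oocytes that share genotype and stage were therefore handled as a single sample, without a test. Standard deviations (SD) describe the spread between oocytes.

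The libraries held from 4225037 to 15579217 counts assigned to genes. The mean normalised *Nlrp5* count of NSN oocytes was 17796 ± 8046 (SD, n = 4) in Nlrp5 +/+, 8802 ± 2589 (n = 9) in Nlrp5 +/- and 2060 ± 536 (n = 4) in Nlrp5 -/-, which follows the genotype labels. All 8 oocyte markers, *Zp3* and *Gdf9* among them, had counts in every group. Markers of granulosa cells, 12 genes, summed to between 571 and 997 normalised counts in Nlrp5 +/+ oocytes, between 605 and 1113 in Nlrp5 +/- oocytes and between 653 and 2916 in staged Nlrp5 -/- oocytes, and to 8053 in oocyte 15. Of those genes, *Amh* and *Foxl2* were at 0 in Nlrp5 +/+ NSN oocytes, and *Wt1* was at 0 in Nlrp5 -/- SN oocytes. Theca and stroma markers (9 genes) summed to between 37.8 and 2461 in the staged oocytes and to 5533 in oocyte 15, and vessel and blood markers (7 genes) to between 343 and 762 in the staged oocytes and to 1489 in oocyte 15. The libraries carried 10 first index sequences, each found with 1 genotype only, so an effect of the index set and one of genotype cannot be told apart.

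The 6 genes lie side by side on mouse chromosome 12, from 105146014 to 105222793 (GRCm38, as deposited), with no other gene of the table between them. From the centromeric side these are *Tcl1b2* (chr12:105146014-105155225), *Tcl1b1* (chr12:105159690-105166625), *Tcl1b5* (chr12:105176344-105181145), *Tcl1b3* (chr12:105191043-105195612) and *Tcl1b4* (chr12:105201957-105206993), all on the plus strand. *Tcl1* (chr12:105216750-105222793) follows on the minus strand, so that it faces *Tcl1b4*. In the GENCODE vM39 annotation the principal coding transcript of each gene has 4 exons and a coding sequence of between 348 bases (*Tcl1* and *Tcl1b1*) and 366 bases (*Tcl1b3*). Aligned coding sequences were 59.1% to 65.7% identical between *Tcl1* and a *Tcl1b* gene and 74.3% to 88.3% identical among the *Tcl1b* genes, with *Tcl1b3* and *Tcl1b5* as the closest pair.

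The last 180 coding bases of 4 members are shown because they bear on how far a read can be assigned to 1 of these genes. Capitals mark runs of at least 25 bases that occur unchanged in the coding sequence of another member.
Tcl1: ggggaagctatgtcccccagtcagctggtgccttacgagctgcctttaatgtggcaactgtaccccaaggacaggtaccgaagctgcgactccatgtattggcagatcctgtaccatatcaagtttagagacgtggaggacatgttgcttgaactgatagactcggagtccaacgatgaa
Tcl1b3: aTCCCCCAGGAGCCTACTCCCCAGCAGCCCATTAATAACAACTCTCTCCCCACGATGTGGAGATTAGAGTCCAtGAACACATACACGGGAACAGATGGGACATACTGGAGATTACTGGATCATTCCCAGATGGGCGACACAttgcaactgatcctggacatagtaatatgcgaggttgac
Tcl1b4: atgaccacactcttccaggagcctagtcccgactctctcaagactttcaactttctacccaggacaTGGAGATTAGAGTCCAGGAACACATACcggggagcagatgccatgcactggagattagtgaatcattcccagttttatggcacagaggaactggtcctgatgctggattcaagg
Tcl1b5: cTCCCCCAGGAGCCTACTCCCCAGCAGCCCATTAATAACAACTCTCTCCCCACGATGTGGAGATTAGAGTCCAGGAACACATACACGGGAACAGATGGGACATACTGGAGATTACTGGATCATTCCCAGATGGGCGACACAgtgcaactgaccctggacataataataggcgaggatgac
*Tcl1b3* and *Tcl1b5* had 139 and 140 of these 180 bases in shared runs, *Tcl1b4* had 27, and *Tcl1* had 0. Of all windows of 50 bases in the annotated transcripts of a gene, 34.1% also occurred in a transcript of another gene for *Tcl1b3*, 24.04% for *Tcl1b2*, 20.8% for *Tcl1b5*, 12.4% for *Tcl1b1*, 2.88% for *Tcl1b4* and 0% for *Tcl1*, and the other gene was always a *Tcl1b* gene. For windows of 150 bases, the length of the reads, the share was 3.68% for *Tcl1b3*, 2.64% for *Tcl1b2* and 0% for the other 4. How reads that match more than 1 gene were counted is not given in the sources used here. Values of single *Tcl1b* genes, of *Tcl1b2* and *Tcl1b3* in particular, are therefore less certain than that of *Tcl1*. The summed count is free of how such reads were divided among the members only if each was counted once.

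The bases before the start sites are shown for the same genes as a description. Their part in the levels of the members was not tested. RefSeq promoter sequences of GRCm38.p6 were matched for all 6 members, the 250 bases before the start are printed, and capitals mark the 2 longest runs, of 25 bases each, found in all 5 *Tcl1b* promoters.
Tcl1 (chr12:105222738-105222987, minus strand): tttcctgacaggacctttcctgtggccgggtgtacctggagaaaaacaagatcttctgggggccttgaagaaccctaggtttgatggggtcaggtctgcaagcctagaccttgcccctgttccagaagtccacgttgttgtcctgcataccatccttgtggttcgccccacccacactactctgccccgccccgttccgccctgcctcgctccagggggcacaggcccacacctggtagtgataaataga
Tcl1b3 (chr12:105190795-105191044, plus strand): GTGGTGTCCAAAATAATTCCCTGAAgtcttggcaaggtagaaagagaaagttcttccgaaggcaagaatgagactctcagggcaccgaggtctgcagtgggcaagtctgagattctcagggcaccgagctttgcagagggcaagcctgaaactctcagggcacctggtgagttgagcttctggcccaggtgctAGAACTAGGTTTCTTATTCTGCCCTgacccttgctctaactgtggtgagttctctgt
Tcl1b4 (chr12:105202145-105202394, plus strand): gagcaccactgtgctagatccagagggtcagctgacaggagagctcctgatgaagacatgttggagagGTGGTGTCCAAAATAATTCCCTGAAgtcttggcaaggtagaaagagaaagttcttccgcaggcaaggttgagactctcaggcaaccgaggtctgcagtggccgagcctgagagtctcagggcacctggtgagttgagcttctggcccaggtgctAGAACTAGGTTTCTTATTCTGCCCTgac
Tcl1b5 (chr12:105176094-105176343, plus strand): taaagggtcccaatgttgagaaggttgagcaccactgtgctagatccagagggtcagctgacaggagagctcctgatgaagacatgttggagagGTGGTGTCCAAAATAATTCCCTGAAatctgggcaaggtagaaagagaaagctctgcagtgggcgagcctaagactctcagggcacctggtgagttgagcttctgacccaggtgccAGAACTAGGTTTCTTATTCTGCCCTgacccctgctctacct
Each run was found in 5 of 32851 promoters of this length, the 5 *Tcl1b* promoters. The first ended between 131 and 225 bases and the second between 3 and 32 bases before the start. Over aligned bases without gaps (182 to 237 of the 250), promoters of *Tcl1b* pairs were 73.6% to 99.2% identical, and those of *Tcl1* and a *Tcl1b* gene 51.8% to 60.7%. The lowest *Tcl1b* value was that of *Tcl1b1* and *Tcl1b3*, although *Tcl1b2* was 92.9% identical to the former and 96.4% to the latter. Low values may thus reflect how the windows aligned. On both strands, the E-box letters CANNTG were found in 6 of 6 member promoters and in 66.2% of all promoters, the CCAAT letters in 1 member (*Tcl1b5*) and 33.8% of all, and TATAAA and TAATTG in 0 of 6 members and in 12.4% and 7.17% of all. The RefSeq start lay 1005 bases inside the gene of the deposited table for *Tcl1b2* and 438 bases inside it for *Tcl1b4*, and within 56 bases of the table's start for the other 4.

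Transcripts of the family were abundant in every oocyte. The summed normalised count of the 6 genes had a mean of 21817 ± 6164 (SD, n = 33), with a lowest value of 12987 and a highest of 34283, and the family took 0.174% to 0.449% of all counts of an oocyte. Per kilobase of merged exons the mean normalised count was 4679 ± 1348 (SD, n = 33) for *Tcl1b1* and 4660 ± 1497 for *Tcl1*, followed by 1476 ± 502 for *Tcl1b3*, 1253 ± 420 for *Tcl1b2*, 1023 ± 266 for *Tcl1b4* and 403 ± 166 for *Tcl1b5*. Among 26857 genes with a count and an annotated length these were ranks 50, 51, 160, 190, 245 and 761. *Tcl1b1* and *Tcl1* could not be placed in order, as *Tcl1b1* was the higher in 16 of 33 oocytes. *Tcl1* exceeded *Tcl1b3* and *Tcl1b4* exceeded *Tcl1b5* per kilobase in 33 of 33 oocytes, whereas *Tcl1b3* exceeded *Tcl1b2* in 27 and *Tcl1b2* exceeded *Tcl1b4* in 24, by less than the SD of either gene. *Tcl1* has several annotated isoforms, and per kilobase of the longest transcript its level was 6036 ± 1939 and the highest of the family.

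**Figure D1:**
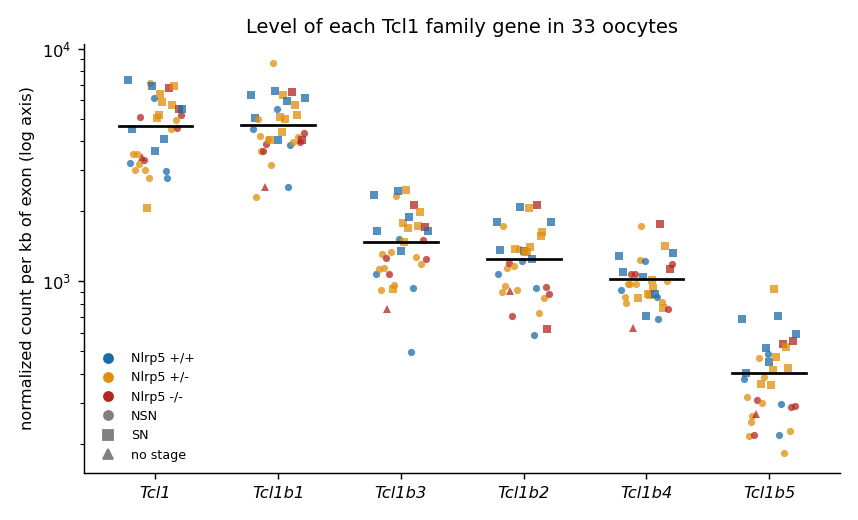
Normalised count per kilobase of merged exons (log axis) of each of the 6 genes in each of the 33 oocytes, coloured by *Nlrp5* genotype and shaped by stage; the black line is the mean. *Tcl1* and *Tcl1b1* overlap at means of 4660 and 4679, and *Tcl1b5* lies lowest at 403.

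In shares of the summed count, *Tcl1* contributed 53.9% ± 5.59 (SD, n = 33), *Tcl1b1* 22.5% ± 3.49, *Tcl1b2* 7.33% ± 1.91, *Tcl1b4* 7.26% ± 1.68, *Tcl1b3* 6.99% ± 1.01 and *Tcl1b5* 1.96% ± 0.587. These shares are not corrected for length. Even the least abundant member was well covered, with 125 to 1358 counts of *Tcl1b5* per oocyte.

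SN oocytes had a higher mean summed family count than NSN oocytes in each genotype, by 1.43-fold in Nlrp5 +/+, 1.28-fold in Nlrp5 +/- and 1.38-fold in Nlrp5 -/-. In Nlrp5 +/+ the 4 NSN oocytes had summed counts of 12987, 14614, 17181 and 26866, and the 6 SN oocytes ranged from 18090 to 32590 with a median of 24652. In Nlrp5 +/- the 9 NSN oocytes ranged from 14695 to 34283 (median 17387) and the 7 SN oocytes from 13839 to 30568 (median 25678). The 4 NSN oocytes of Nlrp5 -/- had 16418, 19926, 21384 and 22222, and the 2 SN oocytes 23078 and 32264. The groups overlapped in Nlrp5 +/+ through NSN oocyte 87 and in Nlrp5 +/- through NSN oocyte 56 and SN oocyte 55, and were separate in Nlrp5 -/-. Somatic markers also differed between stages, not in the same direction in each genotype. The 12 granulosa markers summed to 571 to 748 normalised counts in NSN and 778 to 997 in SN oocytes of Nlrp5 +/+, without overlap, to 605 to 1113 (median 792) and 794 to 1111 (median 954) in Nlrp5 +/-, and to 653 to 2916 (median 1328) and 988 to 1402 (median 1195) in Nlrp5 -/-. Vessel and blood markers were 343 to 528 in NSN and 532 to 665 in SN oocytes of Nlrp5 +/+, also without overlap, with medians of 499 and 656 in Nlrp5 +/- and of 705 and 609 in Nlrp5 -/-. The medians of theca and stroma markers in NSN and SN oocytes were 57.7 and 66.4 in Nlrp5 +/+, 154 and 119 in Nlrp5 +/-, and 281 and 176 in Nlrp5 -/-. Their part in the stage differences was not tested.

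As log2 fold changes of SN over NSN means (pseudocount 1), these were 0.52, 0.36 and 0.47 in Nlrp5 +/+, Nlrp5 +/- and Nlrp5 -/-. The difference of the means was somewhat larger than the SD of either group in Nlrp5 +/+ and somewhat smaller in Nlrp5 +/-. In Nlrp5 -/- it was larger than the NSN SD of 2562 and somewhat larger than the SN SD of 6496. Pooled over oocytes, the level was 26571 (95% Poisson interval 26461 to 26681) in SN and 17607 (17491 to 17724) in NSN Nlrp5 +/+ oocytes, and counting error is thus small beside the spread between oocytes. The value in Nlrp5 +/+ was 0.78 without oocyte 87 and under 0.5 without oocyte 69 (0.44), 85 (0.45), 78 (0.43) or 79 (0.39), and just under it without oocyte 70. In Nlrp5 +/- it was 0.51 without oocyte 56, and in Nlrp5 -/- 0.21 without oocyte 7, 0.69 without oocyte 31, and 0.50 and 0.52 without oocytes 13 and 30. The Nlrp5 -/- value was 0.13 without oocytes 7, 13 and 14, with oocyte 31 alone left for SN. These are the staged Nlrp5 -/- oocytes with the highest granulosa marker sums (1402, 1896 and 2916). Among libraries with the same first index, 6 sets held both stages. In the order given below, the Nlrp5 +/+ sets held 2 SN and 1 NSN, 2 and 1, and 2 and 2 oocytes. The Nlrp5 +/- sets held 1 and 3 and 2 and 2, and the Nlrp5 -/- set 1 and 2, so several values rest on a single oocyte of a stage. Another Nlrp5 +/- set held 4 NSN oocytes only and another 4 SN oocytes only, so stage and set are partly tied there. The value was 0.67, -0.11 and 0.84 in the 3 Nlrp5 +/+ sets, -0.66 and 0.47 in 2 Nlrp5 +/- sets and 0.13 in 1 Nlrp5 -/- set, so that SN was higher in 4 of 6. For single members SN was higher in 5 of 6 sets for *Tcl1b2* and *Tcl1b3*, in 4 for *Tcl1*, *Tcl1b4* and *Tcl1b5* and in 3 for *Tcl1b1*. The 2 exceptions for the summed count held oocyte 87 and oocytes 55 and 56.

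**Figure D2:**
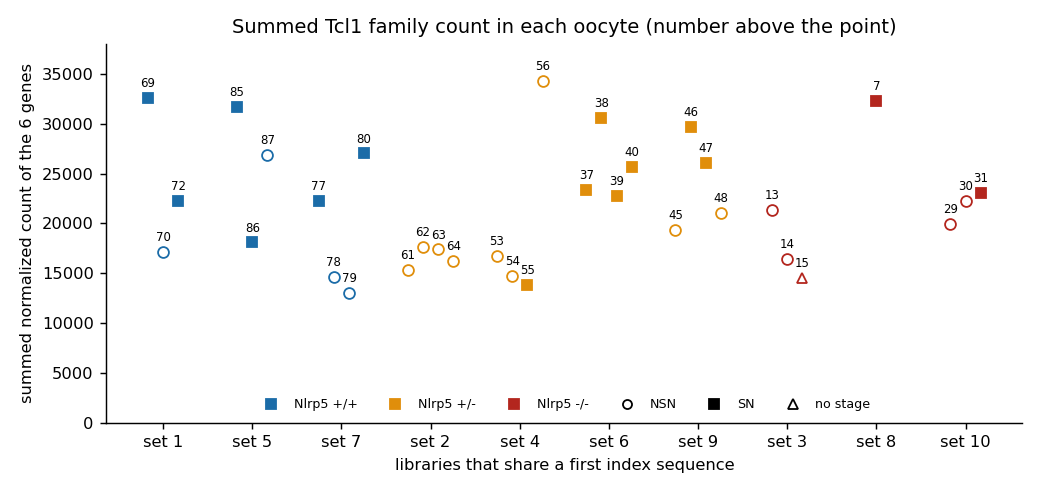
Summed normalised count of the 6 genes in each oocyte, with libraries grouped by first index sequence and coloured by *Nlrp5* genotype; open circles are NSN, filled squares SN, and the triangle is oocyte 15. NSN oocytes 56 (34283) and 87 (26866) and SN oocyte 55 (13839) lie away from the others of their stage.

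Among single members, a log2 fold change of at least 0.5 was reached by 3 of 6 in Nlrp5 +/+, 1 of 6 in Nlrp5 +/- and 4 of 6 in Nlrp5 -/-, against 13.9%, 9.32% and 14.3% of all genes with a mean normalised count of at least 10. These counts hung on single oocytes. They were 5 of 6 without oocyte 86 or 87 in Nlrp5 +/+, 4 of 6 without oocyte 55 or 56 and 2 of 6 without oocyte 37, 39, 40, 53, 63 or 64 in Nlrp5 +/-, and in Nlrp5 -/- 1 of 6 without oocyte 7 (with *Tcl1b2* then lower) and 6 of 6 without oocyte 31. With all oocytes no member was lower in SN by that much, against 20%, 19.4% and 23.8% of all genes. Many of those genes are of low count. Of the 4057 genes with a mean between those of the lowest and the highest member, 10.1%, 8.28% and 9.64% were higher and 5.35%, 4.63% and 8.63% lower by that much, with medians of 0.14, 0.10 and 0.03, so that 0 lower of 6 members is near the share of genes of such levels. The median log2 fold change of the 6 was 0.60, 0.42 and 0.53, and that of all genes 0.03, -0.05 and -0.05. Since *Tcl1b3* took part in the staging, these counts are descriptions and no more.

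*Tcl1b5*, the least abundant member, had the largest difference between stages in Nlrp5 +/- and Nlrp5 -/-. Its 4 Nlrp5 +/+ NSN oocytes had normalised counts of 230, 315, 400 and 512, and the 6 SN oocytes ranged from 426 to 749 (median 586). The 9 Nlrp5 +/- NSN oocytes ranged from 192 to 495 (median 278) and the 7 SN oocytes from 377 to 977 (median 446). The 4 Nlrp5 -/- NSN oocytes had 231, 303, 307 and 325, and the 2 SN oocytes 569 and 582. The log2 fold changes were 0.70, 0.77 and 0.98, and they stayed above 0.5 under each of the other scalings, summaries and left-out oocytes tried. Within first index sets, however, the value was 0.53, -0.0036 and 1.33 in Nlrp5 +/+, -0.094 and 1.20 in Nlrp5 +/- and 0.93 in Nlrp5 -/-, so that 2 of 6 sets had no higher mean in SN. Only in Nlrp5 -/- were the stages without overlap.

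*Tcl1b3* was the member with the largest stage difference in Nlrp5 +/+, and it is a marker by which the oocytes were staged. The 4 Nlrp5 +/+ NSN oocytes had 517, 979, 1126 and 1587 normalised counts, and the 6 SN oocytes 1416 to 2550 (median 1852). Nlrp5 +/- NSN oocytes ranged from 955 to 2441 (median 1242) and SN oocytes from 965 to 2570 (median 1806). The lowest SN value was that of oocyte 55 and the highest NSN value that of oocyte 56. Nlrp5 -/- NSN oocytes had 1129, 1305, 1320 and 1580, and SN oocytes 1790 and 2235, without overlap. The log2 fold changes were 0.91, 0.42 and 0.59, and the last of them was 0.42 without oocyte 7. In Nlrp5 +/- it was 0.53 without oocyte 55 and 0.57 without oocyte 56.

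*Tcl1b2* separated the stages in Nlrp5 +/+ and did the opposite in 1 Nlrp5 -/- oocyte. The 4 Nlrp5 +/+ NSN oocytes had 742, 1178, 1346 and 1542 normalised counts, all below the 6 SN oocytes at 1567 to 2617 (median 1983), and the log2 fold change was 0.74. In Nlrp5 +/-, NSN oocytes ranged from 923 to 2173 (median 1200) and SN oocytes from 1674 to 2598 (median 1762), with a log2 fold change just under 0.5, which reached 0.61 without oocyte 63 and also passed 0.5 without any of oocytes 55, 37, 39, 40, 64, 53 or 56. The Nlrp5 -/- NSN oocytes had 894, 1111, 1192 and 1508, whereas the 2 SN oocytes had 786 (oocyte 31) and 2683 (oocyte 7). The log2 fold change of 0.56 there was 1.19 without oocyte 31, -0.58 without oocyte 7 and 0.45 without oocyte 14, so its direction rested on 1 oocyte. In oocyte 31 *Tcl1b2* made up 3.40% of the summed family count, the lowest share of the 33 oocytes, while *Tcl1*, *Tcl1b3* and *Tcl1b5* of that oocyte lay above all Nlrp5 -/- NSN oocytes.

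Among members with no overlap between stages were 1 of 6 in Nlrp5 +/+ (*Tcl1b2*), 0 of 6 in Nlrp5 +/- and 3 of 6 in Nlrp5 -/- (*Tcl1*, *Tcl1b3* and *Tcl1b5*), against 3.73%, 0.514% and 9.48% of all genes in the same direction.

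*Tcl1*, the AKT coactivator, had moderate stage differences of 0.50 (just under 0.5), 0.42 and 0.44 on the log2 scale in Nlrp5 +/+, Nlrp5 +/- and Nlrp5 -/-. The 4 Nlrp5 +/+ NSN oocytes had 7104, 7579, 8225 and 15672 normalised counts, and the 6 SN oocytes ranged from 9245 to 18690 (median 12806). In Nlrp5 +/- NSN oocytes ranged from 7097 to 18141 (median 8971), and SN oocytes from 5277 to 17594 (median 14588). Of the 7 Nlrp5 +/- SN oocytes, 6 lay between 12817 and 17594, and oocyte 55 lay below all 9 NSN oocytes. Nlrp5 -/- NSN oocytes had 8432, 11589, 12925 and 13199, and the SN oocytes 14002 and 17334. The log2 fold change in Nlrp5 +/+ was 0.83 without oocyte 87 and also passed 0.5 without oocyte 72, 77 or 86. In Nlrp5 +/- it was 0.56 without oocyte 55 and 0.58 without oocyte 56, and in Nlrp5 -/- 0.59, 0.50 and 0.51 without oocytes 31, 13 and 30.

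*Tcl1b1*, the most abundant *Tcl1b* gene, differed by 0.47, 0.23 and 0.42 in the 3 genotypes. Its normalised counts in Nlrp5 +/+ were 2644, 4004, 4706 and 5723 in NSN oocytes and 4207 to 6837 (median 6279) in SN oocytes. They were 2396 to 8984 (median 4261) in NSN and 4216 to 6605 (median 5294) in SN oocytes of Nlrp5 +/-. Nlrp5 -/- NSN oocytes had 3787, 4030, 4124 and 4518, and the SN oocytes 4223 and 6791. The stages overlapped in all 3 genotypes, and the value passed 0.5 without oocyte 87 (0.64), 86 (0.55) or 70 (0.52) in Nlrp5 +/+ and without oocyte 31 (0.72) in Nlrp5 -/-.

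*Tcl1b4* had the smallest stage difference in Nlrp5 +/+ and Nlrp5 +/-, at 0.20 and -0.11, and its groups overlapped throughout. Nlrp5 +/+ NSN oocytes had 1035, 1275, 1379 and 1831 normalised counts, and SN oocytes 1057 to 1985 (median 1602). Nlrp5 +/- NSN oocytes had 1209 to 2574 (median 1454), and SN oocytes 1153 to 2115 (median 1321). In Nlrp5 -/- the NSN oocytes had 1138, 1608, 1613 and 1781 and the SN oocytes 1695 and 2652, and the log2 fold change of 0.50 was 0.14 without oocyte 7, 0.79 without oocyte 31 and 0.38 without oocyte 29. As a share of the summed family count, *Tcl1b4* was 7.94% ± 1.36 (SD, n = 4) in NSN and 6.22% ± 0.960 (n = 6) in SN oocytes of Nlrp5 +/+, 8.31% ± 1.81 (n = 9) and 6.07% ± 1.59 (n = 7) in Nlrp5 +/-, and 7.77% ± 1.68 (n = 4) and 7.78% ± 0.619 (n = 2) in Nlrp5 -/-. The share of *Tcl1b5* was higher in SN in each genotype, from 2.04% ± 0.250 to 2.36% ± 0.581, from 1.68% ± 0.640 to 2.15% ± 0.613 and from 1.49% ± 0.374 to 2.14% ± 0.537. That of *Tcl1b4* was lower in SN in Nlrp5 +/+ and Nlrp5 +/- only. Each of these differences in share was within or near the spread of single oocytes.

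**Figure D3:**
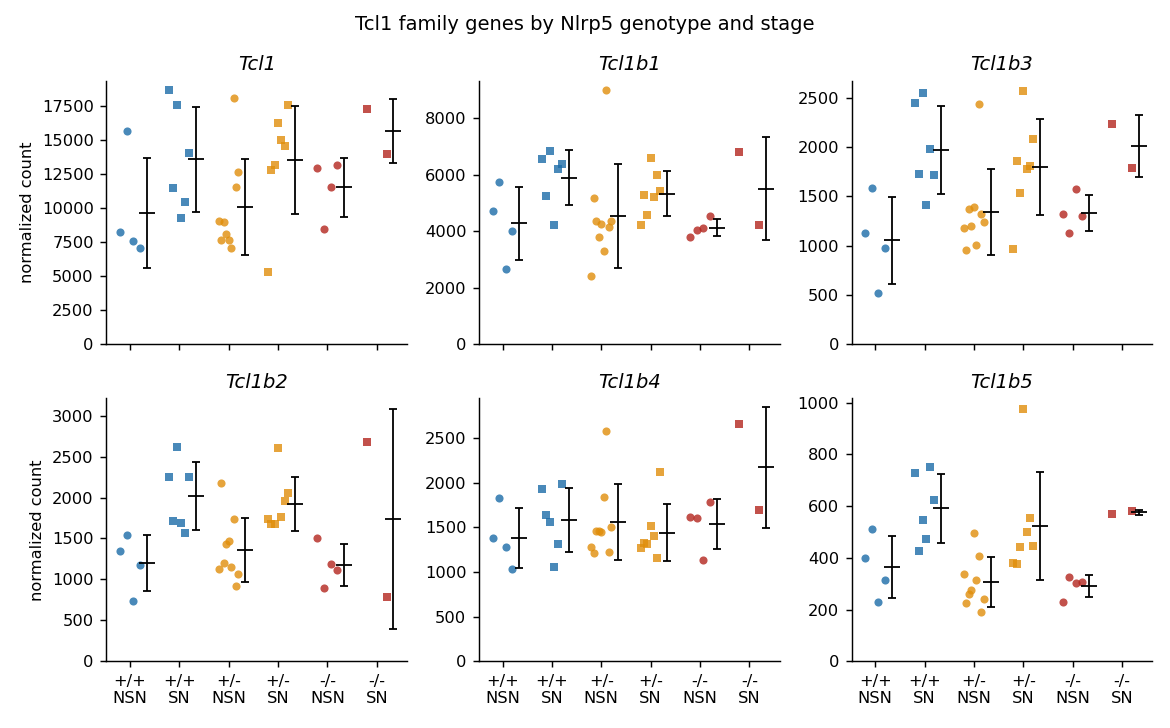
Normalised count of each member in each staged oocyte (circles NSN, squares SN) by *Nlrp5* genotype; the black mark beside each group is its mean with the SD between oocytes, and the 2 Nlrp5 -/- SN oocytes give a wide SD. *Tcl1b2* of Nlrp5 +/+ (NSN up to 1542, SN from 1567) and *Tcl1b5* of Nlrp5 -/- (NSN up to 325, SN from 569) show stages without overlap, and *Tcl1b4* overlaps in each genotype.

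Between the *Nlrp5* genotypes the family differed little. At the NSN stage the mean summed count was 17912 ± 6214 (SD, n = 4) in Nlrp5 +/+, 19188 ± 5984 (n = 9) in Nlrp5 +/- and 19988 ± 2562 (n = 4) in Nlrp5 -/-, and at the SN stage 25654 ± 5768 (n = 6), 24557 ± 5565 (n = 7) and 27671 ± 6496 (n = 2). The largest difference between 2 genotypes was smaller than the SD of the Nlrp5 +/+ group at each stage. The 3 genotype comparisons share oocytes and are given side by side.

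At the NSN stage the summed count of Nlrp5 -/- over Nlrp5 +/+ had a log2 fold change of 0.16, Nlrp5 +/- over Nlrp5 +/+ 0.10 and Nlrp5 -/- over its Nlrp5 +/- littermates 0.06. No member reached 0.5 in either direction in any of the 3. The shares of all genes that did were 15.6% higher and 13.3% lower in Nlrp5 -/- over Nlrp5 +/+, 10.8% and 8.61% in Nlrp5 +/- over Nlrp5 +/+, and 12.2% and 14.9% in Nlrp5 -/- over Nlrp5 +/-. Among the 4057 genes in the range of the members' levels the shares were 7.91% and 5.45%, 4.36% and 4.73%, and 5.74% and 8.41%. All 6 members overlapped between genotypes, against 7.1%, 0.444% and 1.16% of genes without overlap in either direction. Members lay between -0.32 (*Tcl1b5*) and 0.34 (*Tcl1b3*) in Nlrp5 -/- over Nlrp5 +/+, between -0.25 (*Tcl1b5*) and 0.35 (*Tcl1b3*) in Nlrp5 +/- over Nlrp5 +/+, and between -0.21 (*Tcl1b2*) and 0.19 (*Tcl1*) in Nlrp5 -/- over Nlrp5 +/-. Without oocyte 87, which is high in all 6 members among Nlrp5 +/+ NSN oocytes, *Tcl1* reached 0.60 and *Tcl1b3* 0.61 in Nlrp5 -/- over Nlrp5 +/+, *Tcl1b3* reached 0.62 in Nlrp5 +/- over Nlrp5 +/+, and the summed count was 0.42 and 0.36. Markers of 2 of the 3 somatic lists separated Nlrp5 -/- from Nlrp5 +/+ at this stage. Theca and stroma markers summed to 136 to 1616 against 37.8 to 90.0, and vessel and blood markers to 648 to 730 against 343 to 528, both without overlap, while granulosa markers overlapped (653 to 2916 against 571 to 748). Their part in the genotype values was not tested.

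At the SN stage the summed count differed by 0.11 in Nlrp5 -/- over Nlrp5 +/+, -0.06 in Nlrp5 +/- over Nlrp5 +/+ and 0.17 in Nlrp5 -/- over Nlrp5 +/-. With 2 Nlrp5 -/- oocytes, both comparisons of that genotype rest on few cells. In Nlrp5 -/- over Nlrp5 +/+, 0 of 6 members passed 0.5, against 15.9% of all genes higher and 18.7% lower, and 0 of 6 in Nlrp5 +/- over Nlrp5 +/+, against 5.34% and 5.29%. In Nlrp5 -/- over Nlrp5 +/-, 1 of 6 was higher, against 14.6%, and 0 of 6 lower, against 17.6%. In the range of the members' levels the shares were 6.38% higher and 14.9% lower, 0.296% and 0.616%, and 5.62% and 12.9%, in the same order, so that 0 or 1 of 6 members is near the share of genes of such levels. The member higher in Nlrp5 -/- over Nlrp5 +/- was *Tcl1b4*, at 2173 ± 677 (SD, n = 2) against 1439 ± 318 (n = 7) and a log2 fold change of 0.59. It rested on oocyte 7, without which the value was 0.24. Against Nlrp5 +/+ SN oocytes, *Tcl1b4* differed by 0.46, and by 0.75, 0.52 and 0.53 without oocytes 31, 69 and 80. *Tcl1b2* lay at -0.22 in Nlrp5 -/- over Nlrp5 +/+ and at -0.15 over Nlrp5 +/-, and at -1.36 and -1.29 without oocyte 7, where oocyte 31 alone stood for the genotype. In all 3 comparisons all members overlapped, against 15.1%, 0.0827% and 11.1% of genes without overlap. Oocyte 7 had 1402 and oocyte 31 had 988 normalised counts on the 12 granulosa markers. Theca and stroma markers summed to 167 to 185 in Nlrp5 -/- against 51.4 to 141 in Nlrp5 +/+, without overlap, and to 88.1 to 439 in Nlrp5 +/-. Granulosa markers and vessel and blood markers overlapped between Nlrp5 -/- and Nlrp5 +/+. The part of somatic markers in these differences was not tested.

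**Figure D4:**
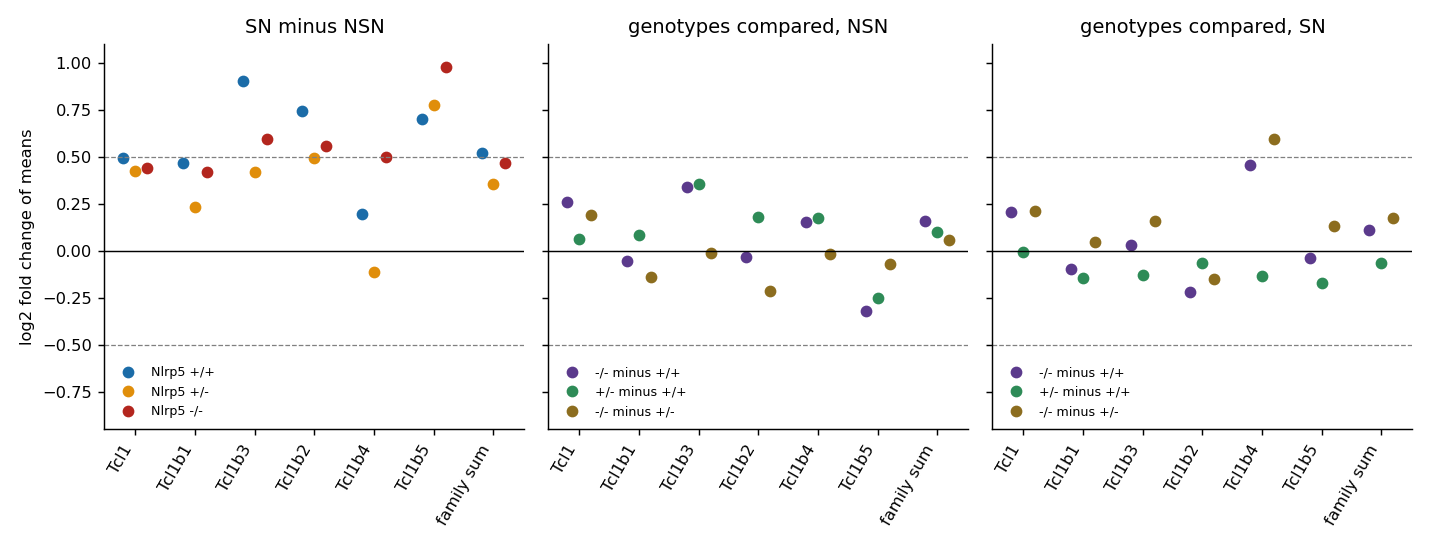
Log2 fold change of group means for each member and for the summed count, with SN over NSN within each *Nlrp5* genotype (left) and the 3 genotype comparisons at the NSN (middle) and SN stage (right); dashed lines mark 0.5 and -0.5. Stage differences are mostly positive, up to 0.98 for *Tcl1b5* in Nlrp5 -/-, and genotype differences lie about 0, with *Tcl1b4* in Nlrp5 -/- over Nlrp5 +/- at 0.59.

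The members varied together between single oocytes. Over 33 oocytes the Pearson correlation of log2 normalised counts was between 0.32 and 0.82 (median 0.61) for the 15 pairs of members, and between 0.32 and 0.81 (median 0.49) over 32 oocytes after the mean of each genotype and stage had been subtracted. *Tcl1* with *Tcl1b3* was the closest pair (0.82, and 0.81 within groups), and these share no window of 50 bases. *Tcl1b1* with *Tcl1b3* followed (0.82 and 0.76), and *Tcl1b2* with *Tcl1b4* (0.32, and 0.42 within groups) and *Tcl1b4* with *Tcl1b5* (0.32 and 0.35) were the loosest over 33 oocytes. Within groups the loosest pair was *Tcl1* with *Tcl1b5* (0.32). The points share the size factor of each library, and the correlation of the summed count with the log2 depth was 0.11. With the number of genes detected it was -0.12. With the log2 sum of granulosa markers it was -0.10 over 33 oocytes and 0.14 over the 32 staged ones, but 0.75 in Nlrp5 +/+ (n = 10, both stages), 0.17 in Nlrp5 +/- (n = 16) and -0.27 in Nlrp5 -/- (n = 6). After the mean of each genotype and stage had been subtracted it was -0.015 (n = 32). These correlations are descriptions over cells whose mice are not known.

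Oocyte 56 (Nlrp5 +/-, NSN) was above the other 8 oocytes of its group in 4 of 6 members, with 18141 normalised counts of *Tcl1* where the next had 12629, and 8984 of *Tcl1b1* where the next had 5177. Oocyte 87 (Nlrp5 +/+, NSN) was above the other 3 in 6 of 6. Oocyte 55 (Nlrp5 +/-, SN) was below the other 6 in 3 of 6 members. In the staging heatmap of the study oocyte 55 stands on the branch of NSN oocytes although its bar is SN, and oocyte 61 on a mixed branch. Without these 2 oocytes the summed count of Nlrp5 +/- differed between stages by 0.42, and with oocyte 61 counted as SN by 0.25.

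Of 8435 other genes with a mean normalised count of at least 100, those most like the summed family count over 33 oocytes were *Cox10* (Pearson r = 0.90), *Gm17018* (0.88), *Psmd4* (0.86), *Dnal4* (0.85) and *Snrnp40* (0.85), where the median over all these genes was 0.03. After subtraction of the genotype and stage means, r was 0.92, 0.87, 0.88, 0.83 and 0.82 over 32 oocytes. *Cox10* encodes an enzyme of haem A synthesis, *Psmd4* a ubiquitin receptor of the proteasome, *Dnal4* a dynein light chain and *Snrnp40* a protein of the U5 small nuclear ribonucleoprotein. None of the 5 lies on chromosome 12. Their SN over NSN log2 fold changes were 0.44 to 0.63 in Nlrp5 +/+, 0.24 to 0.59 in Nlrp5 +/- and 0.43 to 0.64 in Nlrp5 -/-.

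Within 500 kb of the cluster the table held 20 other genes, of which 9 had a mean normalised count of at least 10, and none lay between the members. The nearest expressed gene was *Glrx5*, a mitochondrial glutaredoxin 103 kb away, at 2905 ± 844 (SD, n = 33) and SN over NSN log2 fold changes of 0.35, -0.05 and 0.52 in the 3 genotypes. *Dicer1*, which encodes the enzyme that makes small RNAs from hairpins and long duplexes, was at 3710 ± 852 and -0.02, 0.24 and 0.04. *Syne3* (317 ± 107), a nesprin of the nuclear envelope, and *Bdkrb1* (139 ± 45.6), a bradykinin receptor, lay between -0.21 and 0.25. *Atg2b* (258 ± 85.4), of autophagosome formation, was lower in SN, at -0.63, -0.15 and -0.36, and so was *Gskip* (87.01 ± 42.4), a protein that binds GSK3, at -1.10, -0.83 and -0.30. *Gm28875*, *Ak7* and *Snhg10* had means of 28.2, 14.9 and 10.4. *Mtcp1*, a relative of *Tcl1* on another chromosome, had 172 ± 44.0 normalised counts (SD, n = 33) and stage differences of 0.02, -0.01 and 0.38. In NSN oocytes it was 122 ± 28.4 (n = 4) in Nlrp5 -/- against 174 ± 18.5 (n = 4) in Nlrp5 +/+, a log2 fold change of -0.51 without overlap, where 13.3% of all genes were lower by 0.5. It was -0.40, -0.44 and -0.43 without oocytes 14, 13 and 70, and -0.25 without oocytes 7, 13 and 14, and the theca and vessel markers given above separated the same groups. The part of these markers was not tested. Against Nlrp5 +/- NSN oocytes it was -0.64 with overlap, and at the SN stage -0.15 against Nlrp5 +/+ with overlap.

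Of 30 genes listed for the AKT pathway, 29 passed the minimum mean of 10 in each comparison, the exception being *Inpp4b*, a phosphoinositide phosphatase with a mean of 2.33 normalised counts. Per kilobase the highest of each role were *Pik3cd*, a catalytic subunit of PI3-kinase, among activators (478 ± 134, SD, n = 33), *Ppp2ca*, the catalytic subunit of protein phosphatase 2A, among the brakes (102 ± 23.5) and *Foxo3* among the targets (296 ± 95.0). Every Tcl1 family gene except *Tcl1b5* (403) had a higher mean per kilobase than each of the 30 listed genes.

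Between stages the median of the pathway genes was below 0 in Nlrp5 +/+ (-0.18) and Nlrp5 -/- (-0.11) and above 0 in Nlrp5 +/- (0.14), while the summed family count was higher in SN in each. The size of these medians rested on single oocytes, with -0.06 in Nlrp5 +/+ without oocyte 79, 0.06 in Nlrp5 +/- without oocyte 55 or 56, and -0.02 in Nlrp5 -/- without oocyte 13. The shares of all genes past 0.5 were those given above, 13.9% higher and 20% lower in Nlrp5 +/+, 9.32% and 19.4% in Nlrp5 +/-, and 14.3% and 23.8% in Nlrp5 -/-. In Nlrp5 +/+, 1 of 29 was higher in SN by at least 0.5, the cell cycle inhibitor *Cdkn1b* (0.56), and 8 of 29 were lower, among them *Tsc1*, *Gsk3a* and *Mtor* (-0.69, -0.54 and -0.54) and *Pik3r2*, *Gsk3b* and *Mlst8* (-1.10, -1.12 and -1.17), with *Phlpp1* at -0.76. In Nlrp5 +/- 3 of 29 were higher, namely *Foxo3* (0.88), the PI3-kinase regulatory subunit *Pik3r1* (0.55) and the ubiquitin ligase *Mdm2* (0.54), and 2 were lower, *Mlst8* (-0.85), a subunit of mTOR complexes, and *Pik3r2* (-0.69). Among Nlrp5 -/- oocytes *Foxo3* (0.61) and *Pik3cd* (0.51) were higher, and 6 were lower, among them *Pik3ca*, *Mlst8*, *Inppl1* and *Gsk3b*, between -0.73 and -0.56. Only *Mlst8* was lower by at least 0.5 in all 3 genotypes, and no listed gene was higher in all 3.

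Between genotypes at the NSN stage, 3 of 29 pathway genes were higher and 2 lower by at least 0.5 in Nlrp5 -/- over Nlrp5 +/+, with *Bad*, a proapoptotic protein inhibited by AKT, at 0.93, *Inppl1* at 0.91 and *Pik3r2* at 0.63, and with *Phlpp1*, a phosphatase of AKT, at -0.89 and *Gsk3a* at -0.72. Of all genes, 15.6% were higher and 13.3% lower in that comparison, 10.8% and 8.61% in Nlrp5 +/- over Nlrp5 +/+, and 12.2% and 14.9% in Nlrp5 -/- over Nlrp5 +/-. In Nlrp5 +/- over Nlrp5 +/+, 1 was higher (*Bad*, 0.62) and 3 lower (*Phlpp1*, *Rictor* and *Pdpk1*, at -0.93, -0.79 and -0.57). Over Nlrp5 +/-, 5 were higher in Nlrp5 -/- (*Pik3r1*, *Pik3r2*, *Mapkap1*, *Inppl1* and *Foxo3*, between 0.55 and 0.70) and 0 were lower. At the SN stage the counts were 5 higher and 3 lower in Nlrp5 -/- over Nlrp5 +/+, 1 and 0 in Nlrp5 +/- over Nlrp5 +/+ (*Pik3cb*), and 5 and 5 in Nlrp5 -/- over Nlrp5 +/-, against 15.9% and 18.7%, 5.34% and 5.29%, and 14.6% and 17.6% of all genes. In both comparisons of Nlrp5 -/- at that stage *Akt1*, *Pik3cd*, *Pik3r2*, *Mlst8* and *Bad* were higher, and *Pik3ca* and *Phlpp1* were among the lower ones, which over Nlrp5 +/- also held *Pik3cb* and *Rictor*.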

How the data were processed

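Per the file headers and the labels, the authors used Trim Galore for trimming and HISAT2 for alignment to GRCm38, and deposited raw counts of reads per gene for 33 oocytes. Settings of the counting, strand and multiple matches included, are not given in the sources used here. Of 35373 entries, 52 that repeat a gene were left out and the one with most counts was kept. Counts were divided by size factors (median of ratios over the 33 oocytes). Fold changes are log2 of (mean over oocytes + 1) in the first group minus that in the second. Genes with a mean of at least 10 over the oocytes compared formed the background, and 0.5 was the fold used in the text. Poisson intervals (95%, exact) cover counting error only. The deposited read totals and the authors' tables of called genes, which hold fold changes and p-values, were not used. The 6 members, the gene lists and the naming rules (the members, pathway genes highest in each role or past 0.5, neighbours with a mean of at least 10, *Mtcp1*, and the 5 genes with the highest correlation) were chosen with earlier results of these data known. Lengths and coding sequences are from GENCODE vM39 (34755 of 35321 genes matched), promoters from RefSeq. Some items of the pathway list are counted but not reported by name here. The fold change was checked on simulated data. Alternatives were scaling to the library total (CPM), TMM factors (edgeR 4.0.16), size factors within a comparison, medians, pooled sums, a pseudocount of 5, other filters and lengths, other oocyte sets and leaving out each oocyte. Python 3.11.15, numpy, pandas, scipy, Biopython and matplotlib were used.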

Additional observations from a re-analysis of the deposited data

Results flagged for a closer look

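Within the groups of 4 to 10 oocytes, 35 combinations of a gene or the summed count with a group were looked at for an oocyte far from the rest, and 10 were picked out. Chance picks out about 1 in 20 such groups. Members vary together, so the 10 are not independent of each other.

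In Nlrp5 +/- NSN oocytes, oocyte 56 stood above the others in the summed count (34283, where the next had 21031), *Tcl1* (18141, next 12629), *Tcl1b1* (8984, next 5177), *Tcl1b3* (2441, next 1395) and *Tcl1b4* (2574, next 1840). In Nlrp5 +/+ NSN oocytes, oocyte 87 stood above the others in *Tcl1* (15672, next 8225). In Nlrp5 +/- SN oocytes, oocyte 55 stood below the others in *Tcl1* (5277, next 12817). Oocyte 38 stood above the others of that group in *Tcl1b2* (2598, next 2058) and *Tcl1b5* (977, next 553), and oocyte 46 in *Tcl1b4* (2115, next 1514).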

How the results depend on the processing

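No paired analysis was possible because the labels give the oocytes no replicate numbers and no test was made, but SN and NSN were compared within first index sets. There the summed family count was lower in SN in 2 of 6 sets (-0.11 and -0.66). Over all oocytes of a genotype it was higher in SN under the other scalings, summaries and left-out oocytes tried, and the size depended on single oocytes. Leaving out 1 oocyte gave 0.39 to 0.78 in Nlrp5 +/+, 0.30 to 0.51 in Nlrp5 +/- and 0.21 to 0.69 in Nlrp5 -/-, and without oocytes 7, 13 and 14 the value in Nlrp5 -/- was 0.13. Between genotypes it gave 0.03 to 0.42, -0.05 to 0.36 and 0.00 to 0.21 at the NSN stage (Nlrp5 -/- over +/+, +/- over +/+ and -/- over +/-), and -0.15 to 0.33, -0.15 to 0.04 and -0.09 to 0.39 at the SN stage, and under the other alternatives the lowest values of the first and the last NSN comparison were -0.08 and -0.01, so no genotype direction held throughout. For *Tcl1b2*, SN over NSN in Nlrp5 -/- was -0.55 without oocytes 7, 13 and 14 and ranged from -0.58 (without oocyte 7) to 1.19 (without oocyte 31) when 1 oocyte was left out. For *Ak7*, Nlrp5 +/- over Nlrp5 +/+ at the NSN stage ranged from -1.07 (without oocyte 61) to 0.33 (without oocyte 87). Scaling to library totals lowered the summed change in Nlrp5 +/+ to 0.40, with a shift of -0.11 in the median of all genes, and medians over oocytes gave 0.56 in Nlrp5 +/-. The median of the pathway list between stages ranged from -0.26 to -0.06 in Nlrp5 +/+, from 0.06 to 0.21 in Nlrp5 +/- and from -0.19 to -0.02 in Nlrp5 -/- when 1 oocyte was left out, and scaling to library totals gave -0.29 in Nlrp5 +/+. Without regard to stage, the median of the pathway list was -0.11 in Nlrp5 +/- over Nlrp5 +/+ and 0.25 in Nlrp5 -/- over Nlrp5 +/-, against -0.19 and 0.31 at the NSN stage and 0.02 and 0.07 at the SN stage. Per kilobase of coding sequence the summed level of the 6 genes was 46263, against 13494 per kilobase of merged exons. The longest annotated coding sequence of each gene was used there, 606 bases for *Tcl1* and 387 for *Tcl1b1*, not that of the principal transcript. Leaving out oocytes 55 and 61, and the background of genes in the range of the members' levels, were chosen after seeing the data. With a minimum mean of 100, which all members pass, fewer genes were lower in SN by 0.5 (11.5%, 10.5% and 15.5% in Nlrp5 +/+, +/- and -/-), and at the SN stage 1.13% and 1.26% of genes were higher and lower in Nlrp5 +/- over Nlrp5 +/+, while without a filter 12.97% were lower. The causes of these changes were not tested.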

Other observations

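Oocyte 15, an Nlrp5 -/- oocyte without a stage, had a summed family count of 14507, within the range of the Nlrp5 +/+ oocytes (12987 to 32590) and below that of the Nlrp5 -/- NSN oocytes (16418 to 22222). Its *Tcl1* count of 8688 lay within the NSN range of its genotype, as did *Tcl1b2* (1145) and *Tcl1b5* (285), while *Tcl1b1* (2653), *Tcl1b3* (793) and *Tcl1b4* (944) lay below it. The 8 oocyte markers also summed to less in oocyte 15, 120149 normalised counts against 177548 to 188019 in Nlrp5 -/- NSN oocytes. Its somatic markers were high, with 8053 for granulosa cells and 5533 for theca and stroma. The part of this in its family counts was not tested.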
